A study of Homo sapiens with 29 samples.

Results

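Nuclear receptors are transcription factors that share a zinc-finger DNA-binding domain, and most also hold a pocket that binds a small lipid-soluble molecule such as a steroid, a bile acid, a fatty acid or a retinoid. Occupancy at the genes that encode them was described here for 41 named receptor genes out of 19785 protein-coding genes. The members were chosen by name and not by any measured value. A gene was called occupied in a peak list when a peak lay within 1 kb of any of its coding transcript starts in GENCODE release 44, lifted to the hg19 build, and its value was the width in bp of the widest such peak.

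The study mapped subunits of the INO80 complex, and YY1, by chromatin immunoprecipitation and sequencing in HepG2 and Huh7, which are established human liver cancer cell lines. The labels describe 3 INO80 libraries in HepG2 and 2 in Huh7, 2 libraries each of MCRS1 and of RUVBL2 in either line, 2 of RUVBL1 in HepG2 and 2 of YY1 in Huh7, with inputs. No genotype or treatment separated the libraries used here, and the cells were fixed with formaldehyde and given fly chromatin as a spike-in. Peaks of YY1 in HepG2 came from ENCODE reads that the authors put through the same steps, so that list came from another laboratory's material. INO80 libraries A and B of HepG2 used an antibody lot other than the one used for library C and for Huh7. The other libraries of the series, on histone acetylation in HepG2 after EPZ-6438 or its DMSO control, were not used here.

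INO80 is an ATP-dependent chromatin remodeller that slides nucleosomes and exchanges histone variants beside promoters. MCRS1 is one of its accessory subunits, RUVBL1 and RUVBL2 are related ATPases that form a ring in INO80 and in other complexes, and YY1 is a zinc-finger factor that copurifies with INO80 and also binds DNA alone. In liver, nuclear receptors set the rate of bile acid synthesis, lipid burning, drug clearance and gluconeogenesis, many of them as dimers with a retinoid X receptor, and they act by exchanging corepressors for coactivators.

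Promoters of 3 receptor genes are shown to give the range of sequence beside these calls. Each line holds the 250 bases before the first coding start of the promoter with the canonical transcript, on the gene's strand and 5′ to 3′, with every CpG dinucleotide in capitals. NR2F2 (chr15:96873679-96873928, plus strand) had a peak in all 9 lists as a gene and in 7 of them at the promoter shown. RORB (chr9:77112001-77112250, plus strand) had INO80 in both lines with no YY1 call. NR1I3 (chr1:161208035-161208284, minus strand) had no INO80 call in either line.
NR2F2: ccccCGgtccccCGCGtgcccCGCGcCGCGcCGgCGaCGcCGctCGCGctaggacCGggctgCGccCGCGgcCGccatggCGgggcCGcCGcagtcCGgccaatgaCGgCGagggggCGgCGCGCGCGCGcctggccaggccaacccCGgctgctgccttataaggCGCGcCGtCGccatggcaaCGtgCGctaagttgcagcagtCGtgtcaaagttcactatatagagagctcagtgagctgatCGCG
RORB: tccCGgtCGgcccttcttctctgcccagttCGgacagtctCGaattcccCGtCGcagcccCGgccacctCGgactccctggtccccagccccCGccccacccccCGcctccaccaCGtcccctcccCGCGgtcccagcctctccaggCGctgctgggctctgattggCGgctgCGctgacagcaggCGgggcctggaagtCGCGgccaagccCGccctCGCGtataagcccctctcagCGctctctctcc
NR1I3: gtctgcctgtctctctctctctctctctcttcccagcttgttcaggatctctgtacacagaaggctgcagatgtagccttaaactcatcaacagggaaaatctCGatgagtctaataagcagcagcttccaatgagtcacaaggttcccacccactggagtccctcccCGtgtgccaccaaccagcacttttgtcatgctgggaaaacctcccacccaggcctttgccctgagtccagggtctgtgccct
The NR2F2 window held 40 CpG, RORB 23 and NR1I3 2. These 3 were picked as examples, and members that go against this order are named with the CpG content below. None of the 3 windows held the YY1 core AANATGGC or the receptor half-site AGGTCA on either strand.

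The deposited lists give only where each peak begins and ends, with 1 list per factor and line. No call therefore has a replicate or an error, no difference between lists could be tested, and width is not a measure of height. Lists held from 3322 to 39293 peaks, their narrowest peak was 147 bp in all 9, and each Huh7 list was shorter than the HepG2 list of the same factor. Liver identity was checked with 10 hepatocyte genes. INO80 peaks were at the starts of 8 of these in HepG2 (only FGA and FGB had none) and of 2 in Huh7, APOB and TF, while none of 5 blood genes and none of 5 fibroblast genes had one in either line. Beside the shares of all coding genes with INO80, 63.7% in HepG2 and 47.7% in Huh7, the hepatocyte genes stood above in HepG2 and below in Huh7. Of 5 neuronal genes, INO80 occupied 1 (GRIN1) in HepG2 and 3 (SYT1, SNAP25 and SYP) in the Huh7 list, so that these starts did not mark Huh7 as hepatocyte.

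INO80 was at 32 of the 41 receptor genes in HepG2, 78% against 63.7% of all coding genes, and at 27 in Huh7, 65.9% against 47.7%. MCRS1 was at 28 receptor genes in HepG2, 68.3% against 58.1%, and at 14 in Huh7, 34.1% against 21.8%. The share of receptor genes therefore stood above the share of all coding genes for both subunits in both lines. RUVBL1 was at 9 receptor genes in HepG2, 22% against 16.8%. RUVBL2 was at 20 in HepG2, 48.8% against 39.1%, and at 7 in Huh7, 17.1% against 12.7%. YY1 was at 30 in HepG2, 73.2% against 62.6%, and at 26 in Huh7, 63.4% against 51.5%.

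Receptor genes have more annotated starts than most genes, with a median of 4 coding starts per member and 2 per coding gene, and each start is a further place for a call. When only the canonical start of each gene counted, INO80 was at 29 receptor genes in HepG2, 70.7% against 62.5%, and at 20 in Huh7, 48.8% against 46.1%. MCRS1 in HepG2 then stood below the background, with 22 receptor genes, 53.7% against 57.1%. The other HepG2 counts were 7 for RUVBL1 (17.1% against 15.9%), 16 for RUVBL2 (39% against 38%) and 27 for YY1 (65.9% against 61%). In Huh7 they were 9 for MCRS1 (22% against 20.9%), 4 for RUVBL2 (9.76% against 12%) and 21 for YY1 (51.2% against 50%). For all lists but INO80 in HepG2, the 2 shares at the canonical start were within 5 percentage points of each other. Among genes with at least 5 coding starts, INO80 was at 13 of 16 receptor genes in HepG2, 81.2% against 81.6% of such coding genes. With 3 or 4 coding starts it was at 11 of 15, 73.3% against 72%, and with at most 2 it was at 8 of 10, 80% against 55.3%. For INO80 in HepG2 the share of receptor genes was thus close to that of coding genes with as many starts, but for the 10 genes with the fewest. In Huh7 INO80 was at 68.8% against 65.5% with at least 5 starts, 66.7% against 53.8% with 3 or 4 and 60% against 40.3% with at most 2. YY1 shares, in the same order, were 68.8% against 80.8%, 73.3% against 71.6% and 80% against 53.8% in HepG2. In Huh7 YY1 was at 68.8% against 69%, 66.7% against 58.6% and 50% against 43.8%.

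**Figure D1:**
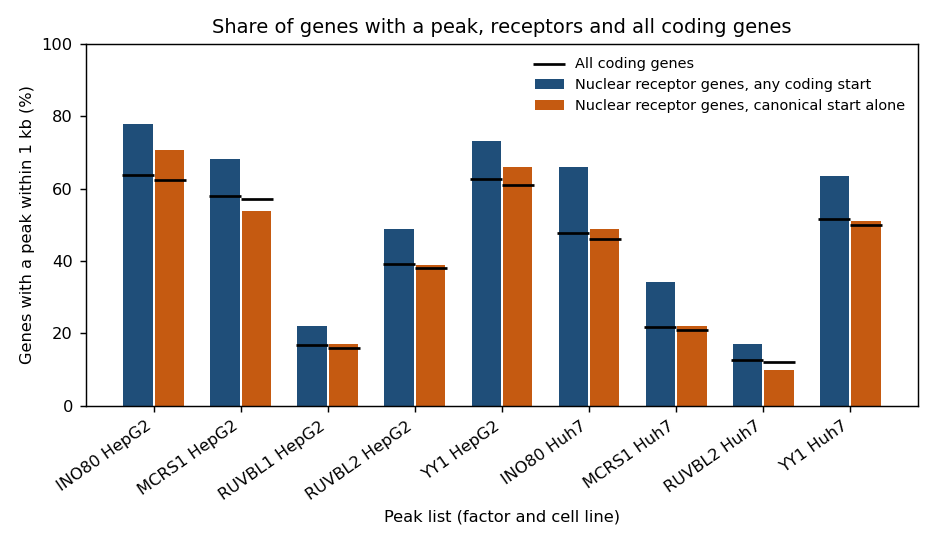
Share of genes with a peak within 1 kb (y axis, percent) in each of the 9 peak lists (x axis). Bars are the 41 receptor genes, counted at any coding start (blue) or at the canonical start alone (orange), and black lines are all coding genes counted the same way; for INO80 in Huh7 the share of receptor genes fell from 65.9% to 48.8% between the 2 counts, while the line moved from 47.7% to 46.1%.

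INO80 peaks at receptor genes had a higher median width than those at coding genes as a whole. In HepG2 the widest INO80 peak at the 32 called receptor genes ranged from 180 to 4433 bp with a median of 1577.5 bp, beside 1118.5 bp over all 12606 called coding genes, and 23 of the 32 were above that median. In Huh7 the 27 called receptor genes ranged from 175 to 3026 bp with a median of 1124 bp, beside 635 bp, and 19 were above it. At the canonical start alone the medians were 1418 bp beside 1106 bp in HepG2 and 1177.5 bp beside 629 bp in Huh7, so the receptor genes' median was above the background there too. Widths of YY1 peaks lay nearer the background, at 1064 bp beside 909 bp in HepG2 and 718.5 bp beside 658 bp in Huh7. With the canonical start alone the YY1 medians were 812 bp beside 907 bp in HepG2 and 663 bp beside 657 bp in Huh7. The medians of MCRS1 peaks were 1635 bp beside 1148 bp in HepG2 and 379 bp beside 310 bp in Huh7. At the canonical start alone they were 1913.5 bp beside 1143 bp in HepG2 and 314 bp beside 308 bp in Huh7. RUVBL1 medians in HepG2 were 278 bp beside 315 bp, and 239 bp beside 313 bp at the canonical start. RUVBL2 medians were 566.5 bp beside 518 bp in HepG2 and 396 bp beside 277 bp in Huh7. At the canonical start they were 520.5 bp beside 516.5 bp and 198 bp beside 276 bp. A median above the background was thus not particular to INO80. It did not hold at the canonical start for RUVBL1 and YY1 in HepG2 and RUVBL2 in Huh7.

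Each list was then cut to its 3322 widest peaks, the number in the shortest list, so that lists of different length could be read side by side. INO80 was then at 15 receptor genes in HepG2, 36.6% against 15.6% of coding genes, and at 16 in Huh7, 39% against 15.3%. MCRS1 was at 14 in HepG2, 34.1% against 15.3%, and at 10 in Huh7, 24.4% against 13.5%. YY1 was at 11 in HepG2, 26.8% against 16.2%, and at 7 in Huh7, 17.1% against 14.7%. With the canonical start alone, a count added after these values were seen, INO80 was at 10 receptor genes in HepG2, 24.4% against 15%, and at 14 in Huh7, 34.1% against 14.6%. The share of receptor genes with one of the widest INO80 peaks was thus above that of coding genes in both lines and under either way of counting starts. The same held for MCRS1, at 29.3% against 14.8% in HepG2 and 14.6% against 12.8% in Huh7 with the canonical start alone.

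**Figure D2:**
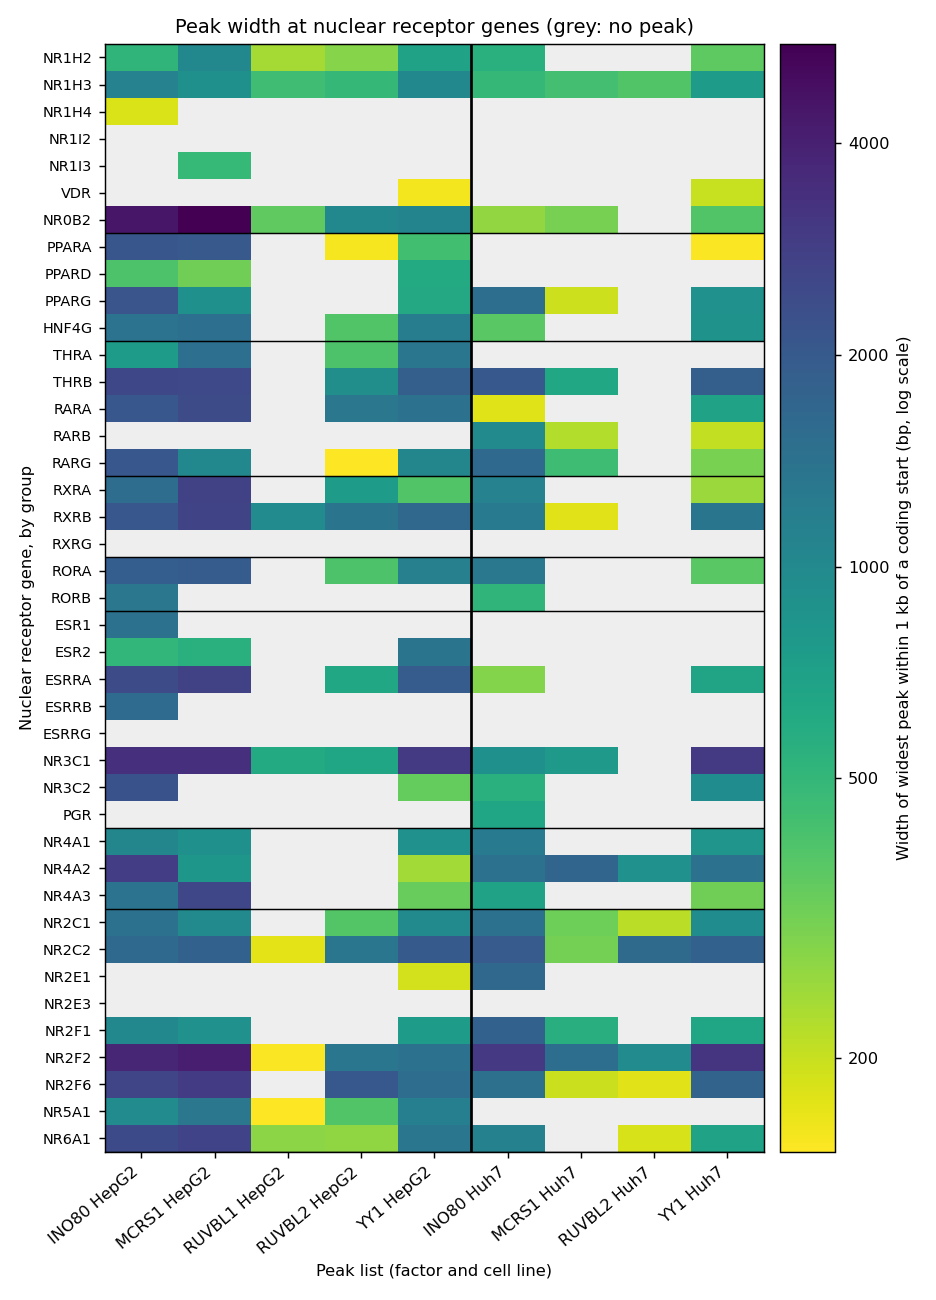
Width of the widest peak within 1 kb of a coding start (colour, bp on a log scale; grey where there was no peak) for each receptor gene (y axis, black lines between the groups described in the text) in each peak list (x axis, HepG2 left of the thick line and Huh7 right). NR1H3, NR2C2 and NR2F2 are coloured in all 9 lists, and NR1I2, RXRG, NR2E3 and ESRRG are grey in all of them.

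INO80 was at 24 receptor genes in both lines, a class that held 45.3% of coding genes, at 8 in HepG2 only, at 3 in Huh7 only and at 6 in neither. The backgrounds of the last 3 classes were 18.4%, 2.4% and 33.9% of coding genes. The 8 with INO80 in HepG2 only were THRA, PPARA, PPARD, NR1H4, ESR1, ESR2, ESRRB and NR5A1, and the 3 with it in Huh7 only were RARB, NR2E1 and PGR. A peak in all 9 lists was found at 3 receptor genes (5.26% of coding genes) and in none at 4 (27.8%). All 5 factors mapped in HepG2 were at 9 receptor genes (14.4%), and all 4 mapped in Huh7 were at 6 (9.07%). The INO80 list held 23665 peaks in HepG2, from 3 libraries, and 15303 in Huh7, from 2. The part of the number of libraries in the difference was not tested, and with 3322 peaks in each list the lone calls were 6 for HepG2 and 7 for Huh7.

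YY1 was called with INO80 at 28 receptor genes in HepG2 (56.7% of coding genes) and at 24 in Huh7 (40.4%). INO80 without YY1 was found at ESR1, ESRRB, NR1H4 and RORB in HepG2 (7.01% of coding genes) and at NR2E1, PGR and RORB in Huh7 (7.27%). YY1 without INO80 was found at NR2E1 and VDR in HepG2 (5.87%) and at PPARA and VDR in Huh7 (11.1%). Of the 25 receptor genes with YY1 in both lines (48.5% of coding genes), 23 also had INO80 in both, PPARA and VDR being the exceptions. That last share was not counted over all coding genes. Of all coding genes with YY1, 11220 of 12381 also had INO80 in HepG2 and 7997 of 10199 in Huh7.

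The other factors mapped in both lines were compared in the same way. MCRS1 was at 13 receptor genes in both lines (21.2% of coding genes), at 15 in HepG2 only (37%) and at RARB in Huh7 only (0.697%). RUVBL2 was at 6 in both lines (11.2%), at 14 in HepG2 only (27.9%) and at NR4A2 in Huh7 only (1.42%). YY1 was at 5 in HepG2 only (14%) and at RARB in Huh7 only (3.01%). A single gene, RARB, thus had INO80, MCRS1 and YY1 in Huh7 and none of them in HepG2.

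**Figure D3:**
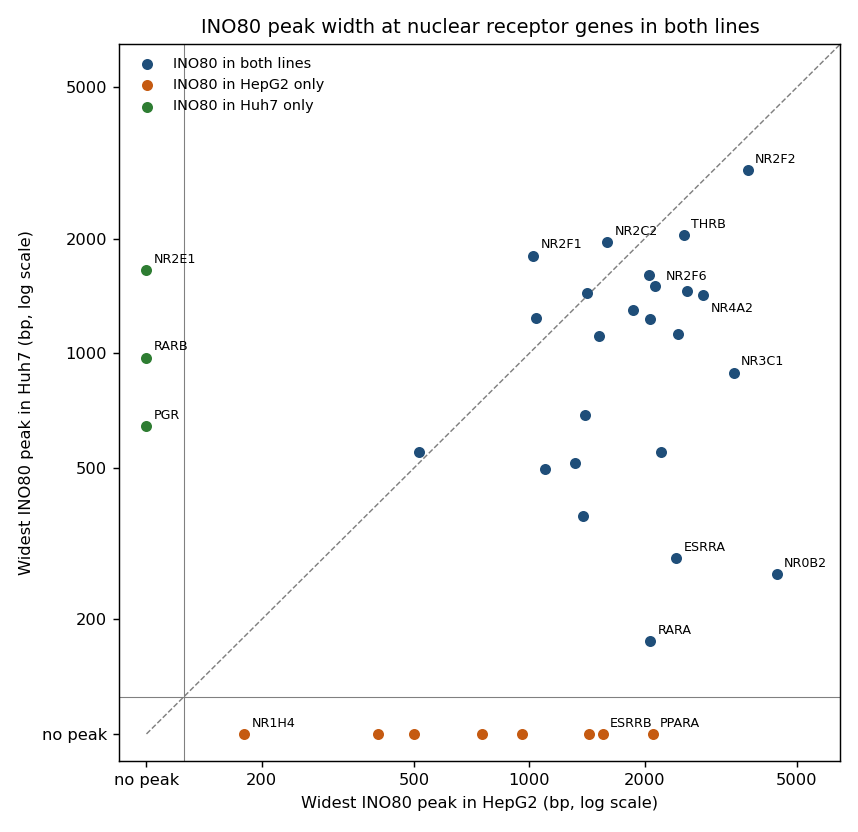
Width of the widest INO80 peak at each receptor gene in HepG2 (x axis) and Huh7 (y axis), in bp on log scales, with genes that had no peak in a line set apart beyond the grey lines and 1 point per gene. Of the 24 genes with INO80 in both lines, 19 lie below the dashed line of equal width, NR2F2 was wide in both lines (3727 and 3026 bp), and NR0B2 was widest in HepG2 (4433 bp) but 263 bp in Huh7. The share of all coding genes below that line was not counted.

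The sensors of sterols, bile acids and foreign compounds were divided. NR1H2 and NR1H3 encode the liver X receptors, which sense oxysterols and induce cholesterol export. NR1H3 was occupied in every list, with widths of 1101 bp for INO80, 897 bp for MCRS1, 450 bp for RUVBL1, 496 bp for RUVBL2 and 1019 bp for YY1 in HepG2, and 497, 432, 396 and 751 bp for INO80, MCRS1, RUVBL2 and YY1 in Huh7. These peaks were at an upstream promoter (INO80 at chr11:47269985-47271085 in HepG2) and not at the canonical one, where INO80 had a 319 bp peak in HepG2 and none in Huh7. NR1H2 had all 5 factors in HepG2 but only INO80 (550 bp) and YY1 (362 bp) in Huh7.

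NR0B2 encodes SHP, a receptor with no DNA-binding domain that represses bile acid synthesis in answer to the bile acid receptor. Its INO80 peak in HepG2 spanned 4433 bp (chr1:27237405-27241837), from 1371 bp before the start to 3061 bp after it and so beyond the whole gene, and was wider than the peak of 97.9% of INO80-occupied genes. MCRS1 spanned 5538 bp there, RUVBL2 1016 bp, RUVBL1 359 bp and YY1 1079 bp. In Huh7 the INO80 peak was 263 bp, MCRS1 309 bp and YY1 396 bp, with no RUVBL2 call, so that the gene with the widest INO80 peak among the members in HepG2 was among the narrow ones in Huh7.

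The other sensors had little or none. NR1H4 encodes FXR, the bile acid receptor itself, and had 1 narrow INO80 peak of 180 bp in HepG2 (chr12:100867691-100867870) and no other call. The nearest YY1, MCRS1 and RUVBL2 peaks to an NR1H4 coding start in HepG2 were 1147, 1456 and 1971 bp away, outside the 1 kb window. In Huh7 its nearest INO80 peak was 977 bp wide and lay 1401 bp from a coding start, just outside the 1 kb window, with MCRS1 1498 bp and YY1 1892 bp away. VDR, the vitamin D receptor, had only narrow YY1 peaks, 156 bp in HepG2 and 200 bp in Huh7. NR1I3 encodes CAR, a sensor of drugs and bilirubin, and had only an MCRS1 peak of 488 bp in HepG2, while NR1I2, which encodes the drug sensor PXR, had no peak in any list. The receptors that induce drug-clearing enzymes were thus without INO80 calls at their starts in both liver lines, as were 33.9% of all coding genes.

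Among the 4 lipid sensors, INO80 peaks were found at every gene in HepG2 (63.7% of coding genes) and at 2 of them in Huh7 (47.7%). PPARG, the receptor that drives fat storage, had INO80 peaks of 2134 bp in HepG2 and 1502 bp in Huh7, and HNF4G, a relative of the main hepatocyte receptor, had 1384 and 374 bp. PPARA, which induces fatty acid oxidation in liver, had INO80 in HepG2 only, at 2103 bp (chr22:46545364-46547466), with MCRS1 at 2024 bp, RUVBL2 at 154 bp and YY1 at 444 bp. In Huh7 its only call was a YY1 peak of 150 bp, and the nearest INO80 peak lay 73234 bp from a start. PPARD, the widely expressed member, also had INO80 in HepG2 only (403 bp), with MCRS1 (325 bp) and YY1 (605 bp), and no call in Huh7. Both PPAR genes that drive fatty acid oxidation therefore had INO80 in HepG2 and not in Huh7.

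The thyroid hormone and retinoic acid receptors split by gene. THRB, the main thyroid hormone receptor of liver, had INO80 peaks of 2530 bp in HepG2 and 2044 bp in Huh7 (chr3:24535409-24537452), the latter second only to NR2F2 among the members. With it were MCRS1 at 2490 and 637 bp and YY1 at 1844 and 1852 bp, HepG2 first. THRA, the other thyroid hormone receptor, had INO80 (753 bp), MCRS1 (1465 bp), RUVBL2 (404 bp) and YY1 (1341 bp) in HepG2 and no call in Huh7. RARB, a retinoic acid receptor, went the other way, with no call of any factor in HepG2 and INO80 (975 bp, chr3:25469332-25470306), MCRS1 (222 bp) and YY1 (205 bp) in Huh7.

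RARA and RARG, the other 2 retinoic acid receptors, were occupied away from their canonical starts. INO80 at RARA was 2069 bp wide in HepG2 (chr17:38472805-38474873) and 175 bp in Huh7, both at promoter 2 of 3 counted from the 5′ end, and in HepG2 a further INO80 peak of 1387 bp lay at promoter 3. At promoter 1 of RARA, the canonical one, the only call was a YY1 peak of 209 bp in HepG2. RARG had INO80 peaks of 2058 and 1607 bp at promoter 2 of 2, in HepG2 and Huh7, and no peak of any factor at promoter 1, the canonical one.

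RXRA and RXRB encode the retinoid X receptors that serve as dimer partners for many of the genes above. The widest INO80 peaks of RXRA were 1519 bp in HepG2 and 1114 bp in Huh7 and ended 418 and 391 bp before its start. RXRB was occupied in 8 of the 9 lists, all but RUVBL2 in Huh7, with INO80 at 2071 bp in HepG2 and 1231 bp in Huh7 across its start. RXRG, the form of muscle and brain, had no peak in any list, its nearest INO80 peak lying 185234 bp away in HepG2 and 91016 bp in Huh7.

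RORA and RORB encode receptors that act on clock genes. RORA had INO80 at promoter 3 in both lines (1861 and 1298 bp) and at promoter 1, the canonical one, in HepG2 alone (1015 bp). RORB, the form of brain and retina, had INO80 of 1317 bp in HepG2 (chr9:77112744-77114060) and 515 bp in Huh7, both after the start, with no other factor called in either line. Its nearest YY1 peaks were 72527 and 72318 bp from a start, so it was the only member with INO80 but no YY1 call in both lines.

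The steroid receptors held several of the single-factor calls. NR3C1, the glucocorticoid receptor, had an INO80 peak of 3420 bp in HepG2 (chr5:142782097-142785516), wider than 95.5% of such peaks, with MCRS1 at 3340 bp, RUVBL1 at 602 bp, RUVBL2 at 659 bp and YY1 at 2992 bp. In Huh7 YY1 was as wide, at 2998 bp, but INO80 was 890 bp and MCRS1 790 bp, with no RUVBL2 call. All lay at promoter 2 of 3, which holds the canonical start. NR3C2, the mineralocorticoid receptor, had INO80 at 2206 bp and YY1 at 348 bp in HepG2, and INO80 at 551 bp and YY1 at 952 bp in Huh7, with no other subunit called.

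ESR1, which encodes the estrogen receptor alpha, had an INO80 peak of 1436 bp in HepG2 (chr6:152128675-152130110) and no call of any other factor in either line. ESR2, the beta form, had INO80 (499 bp), MCRS1 (557 bp) and YY1 (1373 bp) in HepG2 and no call in Huh7. PGR, the progesterone receptor, had only an INO80 peak of 643 bp in Huh7 (chr11:100998441-100999083), beginning 718 bp after a start. ESRRB, an estrogen-related receptor known from embryonic stem cells, had only an INO80 peak of 1556 bp in HepG2 (chr14:76842305-76843860). INO80 without any other mapped factor within 1 kb was thus the pattern at ESR1, ESRRB and NR1H4 in HepG2, at PGR and NR2E1 in Huh7 and at RORB in both. At NR1H4 it depended on the window, since YY1, MCRS1 and RUVBL2 peaks lay within 5 kb of a start in HepG2. The share of coding genes with INO80 alone was not counted.

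ESRRA, a regulator of mitochondrial genes, had INO80 at 2420 bp in HepG2 and 290 bp in Huh7, the Huh7 peak lying downstream of the HepG2 one and not overlapping it. ESRRG, of the same subfamily, had no call in any list. An INO80 peak lay 1817 bp from an ESRRG start in HepG2 (2589 bp wide) and 1968 bp in Huh7 (1765 bp wide), outside the 1 kb window and inside one of 5 kb.

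NR4A1, NR4A2 and NR4A3 are immediate-early genes whose products work without a known natural ligand. INO80 was at all 3 in both lines, as at 45.3% of coding genes. RUVBL1, mapped in HepG2 alone, was at none of them and at 16.8% of coding genes. At its canonical promoter NR4A2 had INO80 at 2848 bp (chr2:157188649-157191496) and YY1 at 244 bp in HepG2. Its MCRS1 peak of 806 bp in HepG2 was at the upstream promoter, and there was no RUVBL2 call. In Huh7 NR4A2 had INO80 at 1420 bp, MCRS1 at 757 bp, RUVBL2 at 883 bp and YY1 at 1414 bp at the upstream promoter. Its widest MCRS1 peak in Huh7, of 1687 bp, was at the canonical promoter. Within 1 kb of a start, the widest INO80 peak of NR4A2 was at the canonical promoter in HepG2 and at the upstream one in Huh7. Both promoters had an INO80 peak in both lines. A wider INO80 peak in Huh7, of 1764 bp, ended 1119 bp before a start of the canonical promoter, outside that window. The difference between the lines thus depended on the window. NR4A2 was the only receptor gene with RUVBL2 in Huh7 and not in HepG2.

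NR2F2 and NR2F1 encode the COUP factors, which mark venous and other mesoderm and neural fates. NR2F2 too was occupied in every list, with INO80 at 3727 bp in HepG2 (chr15:96874979-96878705) and 3026 bp in Huh7, the widest INO80 peak of any member there. The rest measured 4090 bp for MCRS1, 151 bp for RUVBL1, 1335 bp for RUVBL2 and 1429 bp for YY1 in HepG2, and 1501, 959 and 3225 bp for MCRS1, RUVBL2 and YY1 in Huh7. In both lines the widest INO80 peak crossed a start of promoter 3 and not the canonical start. NR2F1 had a wider INO80 peak in Huh7 (1807 bp) than in HepG2 (1024 bp), where most members had the reverse.

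NR2C2, the testicular receptor 4, was the remaining gene with all 9 calls, beside NR1H3 and NR2F2. Its INO80 peaks crossed the start and measured 1599 bp in HepG2 and 1964 bp in Huh7 (chr3:14988529-14990492). MCRS1 was 1803 bp, RUVBL1 170 bp, RUVBL2 1328 bp and YY1 1977 bp in HepG2, and MCRS1 was 314 bp, RUVBL2 1574 bp and YY1 1798 bp in Huh7. Its relative NR2C1 had INO80 peaks of 1418 and 1440 bp, and these 2 genes, with NR1H2, NR2F1 and NR4A1, were the 5 of the 24 shared genes whose INO80 peak was wider in Huh7. The same split was not counted over all coding genes. Over all called coding genes the median INO80 width was 1118.5 bp in HepG2 and 635 bp in Huh7.

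Of the other orphan receptors, NR2F6 had INO80 at 2587 bp in HepG2 and 1460 bp in Huh7, and NR6A1 at 2443 and 1124 bp. NR5A1, which sets the fate of steroid-making tissue, had all 5 factors in HepG2 (INO80 960 bp, MCRS1 1307 bp, RUVBL1 147 bp, RUVBL2 391 bp, YY1 1158 bp) and none in Huh7. Its nearest INO80 peak in Huh7, 188 bp wide, lay 1986 bp from a start, outside the 1 kb window and inside one of 5 kb. NR2E1, a receptor of neural stem cells, had INO80 of 1658 bp in Huh7 (chr6:108486208-108487865) and no INO80 in HepG2, where YY1 had a 188 bp peak. That Huh7 peak also lay within 1 kb of a start of the neighbouring gene OSTM1, so it cannot be told apart from a peak of that gene. With the starts of all annotated transcripts counted, NR2E1 had an INO80 call in HepG2 as well. NR2E3, a photoreceptor gene, had no peak in any list.

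**Figure D4:**
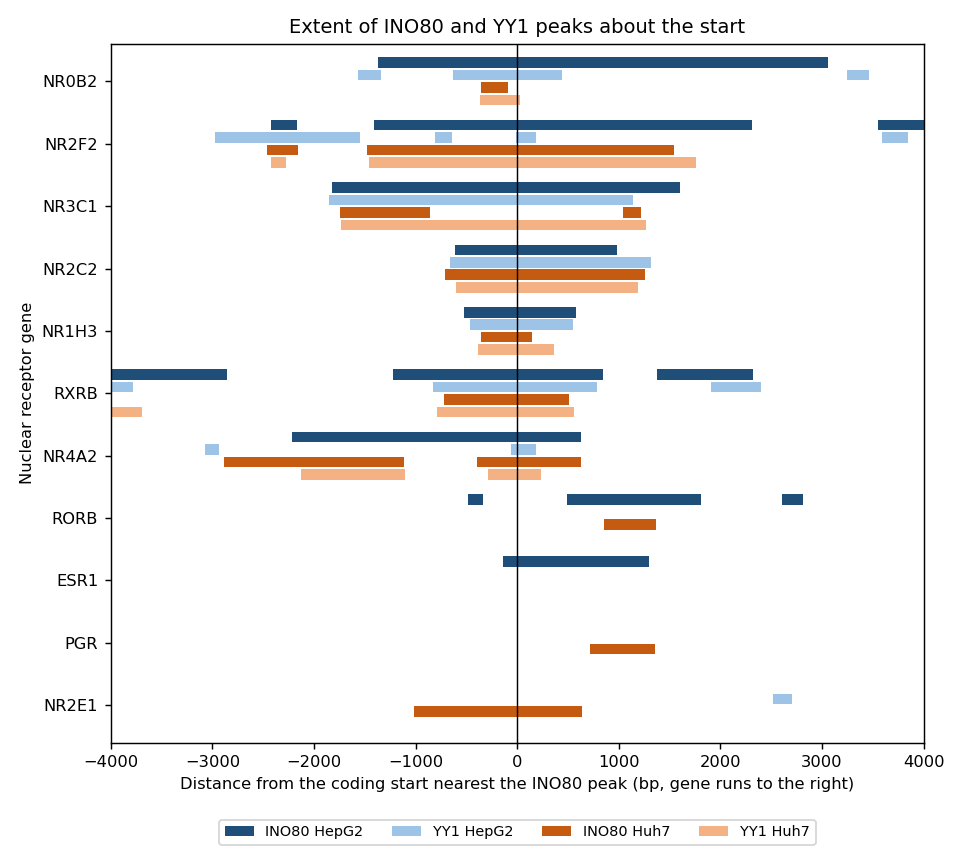
Extent of INO80 and YY1 peaks (bars, coloured by factor and line) around a coding start of 11 receptor genes (y axis), by distance from the start nearest the INO80 peak in bp (x axis, the gene running to the right, cut off at 4000 bp on either side). The 4433 bp INO80 peak of NR0B2 in HepG2 runs to 3061 bp after the start where the Huh7 peak is 263 bp, and RORB, ESR1 and PGR have INO80 bars with no YY1 bar.

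Many receptor genes have several promoters, and INO80 was at some of them and not at others. With starts within 1 kb merged, the 41 genes had 100 promoters, 31 genes had more than 1, and 49 promoters had no peak in any list. HepG2 had INO80 at 43 of these promoters and Huh7 at 33. Of the 24 genes with several promoters and an INO80 call in HepG2, 0 had INO80 at every promoter, and 1 of 20 did in Huh7. The promoters of other coding genes were not counted this way, so these numbers do not set receptor genes apart. In both lines the promoter with the widest INO80 peak lay downstream of the canonical one for RARA, RARG and RORA and upstream of it for NR1H3, HNF4G and NR3C2. In 1 line only this was so downstream for NR2F2 in HepG2 and upstream for ESR2 in HepG2 and NR4A2 in Huh7. At NR4A2 it depended on the 1 kb window.

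In HepG2 the partners' peaks lay on the INO80 peaks of receptor genes at shares within 5 percentage points of those for all occupied genes. There the widest INO80 peak was overlapped by YY1 at 27 of 32 receptor genes (84.4% against 87.2% of occupied coding genes), by MCRS1 at 27 (84.4% against 85.1%), by RUVBL2 at 20 (62.5% against 59.4%) and by RUVBL1 at 7 (21.9% against 25.9%). RORB, NR1H4, ESR1, ESRRB and NR3C2 were the 5 without YY1 there, and the same 5 were without MCRS1. In Huh7 YY1 overlapped 23 of 27 (85.2% against 78.3%), MCRS1 14 (51.9% against 40.4%) and RUVBL2 7 (25.9% against 23.2%). Few of these peaks were shared with a neighbour: NR1H3 with ACP2 and RXRB with SLC39A7 in HepG2, and these and NR2E1 in Huh7, beside 22.6% and 23.3% of occupied coding genes.

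Median CpG content at the canonical start followed the INO80 calls, which were made at any coding start. CpG observed over expected, the number of CpG relative to that expected from the C and G in 300 bases around the canonical start, had a median of 0.905 in the 24 receptor genes with INO80 in both lines, 0.666 in the 11 with it in 1 line and 0.415 in the 6 with none. Over all coding genes the same classes had medians of 0.870, 0.830 and 0.3125, in the same order. There were exceptions on both sides. RXRG (0.972) and VDR (0.844) had high ratios and no INO80, while NR1H3 (0.226) and HNF4G (0.107) had low ratios and INO80 in both lines, with their widest INO80 peak at a promoter other than the one measured. NR0B2 (0.214) also had a low ratio and INO80 in both lines. It has 1 coding start, and its 4433 bp INO80 peak in HepG2 covered the start that was measured. Ratios were also low for RARG (0.429), PPARG (0.430), RARA (0.492) and NR3C2 (0.507), all with INO80 in both lines. PPARG and NR3C2 had INO80 within 1 kb of the canonical start in both lines.

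**Figure D5:**
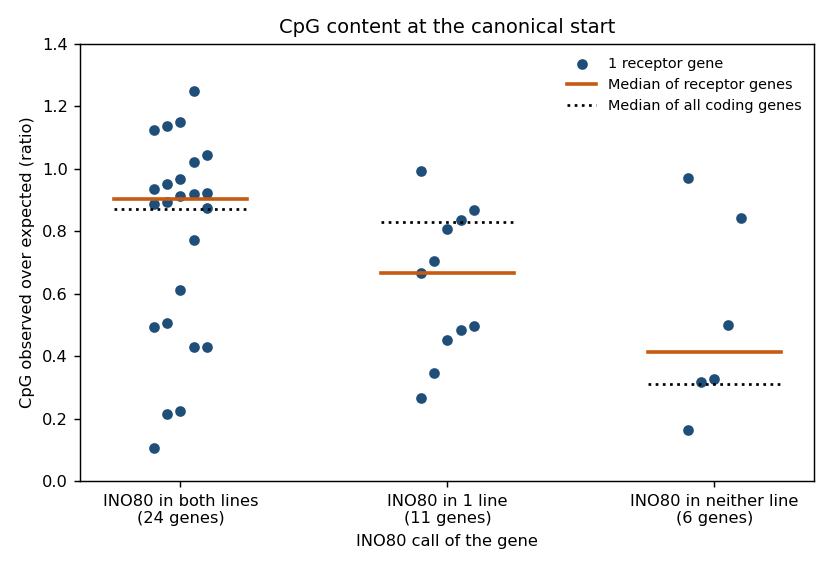
CpG observed over expected in 300 bases around the canonical start (y axis, ratio) of each receptor gene (points), by whether INO80 was called in both lines, 1 line or neither (x axis, 24, 11 and 6 genes). Orange lines are medians of the receptor genes (0.905, 0.666 and 0.415) and dotted lines medians of all coding genes in the same class (0.870, 0.830 and 0.3125).

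The YY1 core AANATGGC, searched on both strands, was in the 300 bases around the canonical start of 2 receptor genes, 4.88% against 8.13% of 19504 coding genes, and the half-site AGGTCA was in 4, 9.76% against 11.1%. In 300 bases around the centre of the YY1 peak, the core was in 2 of 30 receptor genes in HepG2 (6.67% against 10% of YY1 peaks at coding starts) and in 2 of 26 in Huh7 (7.69% against 12%). The 2 were NR1H3 and RXRB in either line, and RXRB held the core 2 times. The 30 bases around these matches are shown on the gene's strand with the core in capitals, which at NR1H3 (chr11:47270435-47270464, plus strand) is read on the opposite strand and at RXRB (chr6:33168589-33168618, minus strand) on the gene's own.
NR1H3: gtgcgttcgccGCCATCTTacttagggacc
RXRB: atgcctttaccAATATGGCggcactccggt
Most receptor genes with a YY1 peak thus had no match to these letters in the window searched.

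Coregulators are the enzymes and adaptors that receptors recruit. All 11 corepressor genes and all 15 coactivator genes had INO80 in HepG2, where 63.7% of coding genes had it, and 8 and 13 of them had it in Huh7, where 47.7% did. The widest in HepG2 were SIN3A, a scaffold of histone deacetylases, at 5323 bp, MED1, the Mediator subunit that receptors contact, at 4931 bp, and NCOA4, a coactivator of the androgen receptor, at 2999 bp. Their Huh7 peaks were 1996, 1085 and 623 bp, and EP300, a histone acetyltransferase, was wider there at 2108 bp. HDAC3, TBL1X, LCOR, CREBBP and PPARGC1A had INO80 in HepG2 only.

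Of 23 genes that receptors are known to induce or repress, 13 had INO80 in HepG2, beside 63.7% of coding genes, and 11 had it in Huh7, beside 47.7%, so their shares were near the background. Among the wide ones in HepG2 were CYP26A1, which degrades retinoic acid, at 3515 bp, and CPT1A, which brings fatty acids into mitochondria, at 2678 bp. Their Huh7 peaks were 2006 and 1721 bp. FGF19, a bile acid hormone gene, had INO80 in Huh7 only, at 2429 bp. CYP7A1, ABCB11, SLC51A, CYP3A4, CYP2B6, TSC22D3, THRSP and TFF1 were among those with no peak in any list. The drug-clearing genes CYP3A4 and CYP2B6 and their receptors NR1I2 and NR1I3 were thus all without an INO80 call at a start in both lines. So were 33.9% of all coding genes, and a 378 bp INO80 peak lay further inside NR1I2 in HepG2.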

How the data were processed

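The authors deposited 1 filtered peak list per factor and line, 9 in all, with 6 columns that give positions on hg19 and no height, score or p-value. Tools named in the submitters' processing notes are Bowtie2, SAMtools, MACS2, bedtools and deepTools, without versions. Whether libraries were pooled before calling, and their depth, are not given in the sources used here. The deposited table of fly tag counts per library was not used.

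Lists were read with Python 3.11.15 and drawn with matplotlib 3.10.9. Starts of coding transcripts came from GENCODE release 44 lifted to GRCh37, whose chromosomes no peak overran, and sequences from the GRCh37 genome. A gene was called when at least 1 bp of a peak lay within 1000 bp of a coding start. The calls were checked on 2000 simulated peaks with 0 wrong. Genes of each list were compared with the share of all 19785 coding genes, or of the 19504 with a canonical start, and no test was run, since each factor and line has 1 list. Values were given in full for members with a peak in all lists, with INO80 in 1 line, with the 5 widest INO80 peaks of each line, or with another factor but no INO80, and the rest by role. The members, gene lists and groups were chosen with earlier results of these data known. Some items of the target gene list and 1 sequence are not reported here.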

Additional observations from a re-analysis of the deposited data

How the results depend on the processing

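No paired analysis was possible because each factor and line has 1 peak list, and for the same reason no library was left out. Of the values recomputed under other settings, 86 stayed within 1.5 times and 32 did not. Where a setting keeps fewer peaks or fewer starts, the lower counts follow from its construction. When a peak had to cover a start, receptor genes called in HepG2 were 3 for RUVBL1 (7.32% against 6.2% of coding genes) and 8 for RUVBL2 (19.5% against 21.5%). In Huh7 they were 15 for INO80 (36.6% against 29%), 6 for MCRS1 (14.6% against 10.1%) and 17 for YY1 (41.5% against 38.3%). YY1 in HepG2 was at 56.1% against 57.3%. It and RUVBL2 in HepG2 thus stood below the background under this setting, and the other lists above it. INO80 was then in both lines at 13, in HepG2 only at 15 and in neither at 11. With the wider 50% of each list, RUVBL1 in HepG2 had 4 (9.76% against 9.58%) and RUVBL2 in Huh7 had 4 (9.76% against 6.8%). INO80 and YY1 together in Huh7 had 14. With the 3322 widest peaks of each list, HepG2 counts were 15 for INO80, 14 for MCRS1, 8 for RUVBL2 (19.5% against 14.2%) and 11 for YY1. Huh7 counts were 16 for INO80 and 7 for YY1, with INO80 in both lines at 9, in Huh7 only at 7 and in neither at 19.

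Settings added after the data were seen used the canonical start alone. MCRS1 then had 9 and RUVBL2 4 in Huh7, and INO80 was in neither line at 10. Together with the 3322 widest peaks, HepG2 counts were 10 for INO80, 12 for MCRS1, 4 for RUVBL1 (9.76% against 10.6%), 6 for RUVBL2 (14.6% against 13.7%) and 9 for YY1 (22% against 15.7%). Huh7 counts were 14 for INO80, 6 for MCRS1, 4 for RUVBL2 (9.76% against 12%) and 5 for YY1 (12.2% against 14.2%).

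Lists of positions do not show how far a gene with no call was from the authors' threshold, and library depth, which sets how many peaks are called, was not analysed here.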

Other observations

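Peaks inside the receptor genes but more than 1 kb from the gene's own coding starts were left out of every count above. INO80 had 31 such peaks in 21 receptor genes in HepG2, 51.2% against 20.6% of coding genes, and 19 in 16 in Huh7, 39% against 12.9%. MCRS1 had 38 in 21 (51.2% against 21.5%) in HepG2 and 5 in 4 (9.76% against 4.78%) in Huh7, and YY1 had 76 in 26 (63.4% against 35.3%) and 19 in 13 (31.7% against 22.4%). Receptor genes are longer, with a median of 53736 bp beside 26961 bp for coding genes, and the part of length in these shares was not tested. RXRA, which spans 123488 bp, had 10 of the YY1 peaks and 2 of the INO80 peaks in HepG2, and 4 and 3 in Huh7. Of the receptor genes with no INO80 at a start, 3 had an INO80 peak further inside the gene in HepG2 and 4 in Huh7, so that the absence of a call at a start was not the absence of INO80 from the gene.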
